A study of Mus musculus with 16 samples.

Results

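Polyamine synthesis and catabolism were followed through 10 genes, Odc1, Amd1, Amd2, Srm, Sms, Sat1, Paox, Smox, Oaz1 and Azin1, chosen by name from the 45706 genes of the deposited table. The set was proposed after the difference of Smox and of Amd1 between knockout and wild-type muscle had been seen. Knockout against wild type is therefore described here for all 10 genes without a test of the set. All 10 passed the filter on low counts. The difference between genotypes is separate from the spread of each gene between libraries of 1 genotype and from how the genes varied together there. Earlier results of these data were known when the set was chosen, and whether they included variation within a genotype is not recorded.

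The samples were quadriceps of mice with a skeletal-muscle-specific deletion of Nampt (KO, 8 libraries) and of wild-type mice (WT, 8 libraries), from which polyadenylated RNA was sequenced. The labels do not give the promoter that drove the deletion, nor the strain, age, sex or litter, and they record no treatment. NAMPT catalyses the rate-limiting step of the salvage route to NAD. The labels do not say whether each library came from a separate animal, so the p-values rest on a spread between libraries that may be technical.

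Putrescine, spermidine and spermine are small polycations that bind RNA and other nucleic acids, and spermidine is also the donor for the hypusine modification of the translation factor eIF5A. Ornithine decarboxylase (Odc1) makes putrescine, and S-adenosylmethionine decarboxylase (Amd1, Amd2) makes the aminopropyl donor that spermidine synthase (Srm) and spermine synthase (Sms) use to lengthen it. Spermine oxidase (Smox) turns spermine back into spermidine, while spermidine/spermine acetyltransferase (Sat1) and the acetylpolyamine oxidase (Paox) do so through acetylated intermediates. Antizyme (Oaz1) delivers ornithine decarboxylase to the proteasome, and antizyme inhibitor (Azin1) holds antizyme away from it. In mouse skeletal muscle, Smox is known to fall during atrophy, and Odc1 and Amd1 are known to respond to androgens.

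Amd1 and Amd2 both encode S-adenosylmethionine decarboxylase and could share reads, which bears on every value given for either. Amd1 (ENSMUSG00000075232) lies at chr10:40287458-40302186 on the minus strand of GRCm38 and has 8 exons. Amd2 (ENSMUSG00000063953) lies at chr10:35708675-35711892 on the minus strand and has 1 exon. In the GENCODE vM21 transcripts their coding sequences, 1005 bases each, differed at 1 base, written G796C with the Amd1 base first and positions counted from 1 at the start of the coding sequence. That base is the first of its codon, GAC (aspartate) in Amd1 and CAC (histidine) in Amd2, so the encoded proteins differ at 1 residue. The stretch around the differing base is shown because it holds the only base of the coding sequence by which a read can tell both genes apart. The capital marks the differing base, the Amd1 stretch lies at chr10:40290160-40290211 and the Amd2 stretch at chr10:35710738-35710789, both on the minus strand.
Amd1: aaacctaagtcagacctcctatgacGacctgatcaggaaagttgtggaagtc
Amd2: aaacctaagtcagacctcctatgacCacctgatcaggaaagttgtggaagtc

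The reads were 52 bases long per end. Of the 954 stretches of that length in the Amd1 coding sequence, 902 (94.5%) also occur in Amd2, and over the whole transcript 2697 of 3153 (85.5%) do. These shares are for single ends, and the share for both ends of a fragment together was not counted. Salmon divides such reads between genes by estimation, which leaves counts that are not whole numbers. The estimated count of Amd1 was not whole in 16 of 16 libraries and that of Amd2 in 15, against 7.00% of tested genes that were not whole in all 16 libraries. Odc1 and Oaz1 were also not whole in 16 libraries, Sms in 15 and Paox in 12, while Srm, Sat1, Smox and Azin1 were whole in every library within 0.01.

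The 2 genes differ upstream of their starts. The 250 bases before the RefSeq start (GRCm38.p6) are shown for both and for Smox, because the levels of all 3 were correlated across KO libraries. Sms was also correlated with each of them in KO libraries, and its 2 windows are not shown. Capitals mark the matches of a search, on both strands, for an E-box with the letters CACGTG, for a core promoter element with the letters TATAAA, for a GC box with the letters GGGCGG, for a CCAAT box and for the palindromic cAMP response element with the letters TGACGTCA. None of these motifs contains another. The windows are chr2:131491612-131491861 on the plus strand for Smox, chr10:40302189-40302438 on the minus strand for Amd1 and chr10:35711892-35712141 on the minus strand for Amd2.
Smox: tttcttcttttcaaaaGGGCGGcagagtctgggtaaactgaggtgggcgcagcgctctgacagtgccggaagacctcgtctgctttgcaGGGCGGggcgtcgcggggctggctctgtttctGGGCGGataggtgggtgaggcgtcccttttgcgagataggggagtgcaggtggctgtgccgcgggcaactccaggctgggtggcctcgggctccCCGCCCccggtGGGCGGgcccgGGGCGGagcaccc
Amd1: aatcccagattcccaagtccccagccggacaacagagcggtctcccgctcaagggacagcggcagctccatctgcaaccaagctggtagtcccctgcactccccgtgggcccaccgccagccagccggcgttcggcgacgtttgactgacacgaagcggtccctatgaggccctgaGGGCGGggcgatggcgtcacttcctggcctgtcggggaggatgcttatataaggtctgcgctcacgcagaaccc
Amd2: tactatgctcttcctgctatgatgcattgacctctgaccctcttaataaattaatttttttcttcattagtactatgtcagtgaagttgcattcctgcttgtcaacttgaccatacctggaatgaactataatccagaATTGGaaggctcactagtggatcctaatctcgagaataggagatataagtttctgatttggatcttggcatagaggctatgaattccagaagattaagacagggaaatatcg

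The Smox window had 68% G and C with 6 GC boxes, the Amd1 window 64.4% with 1 GC box, and the Amd2 window 37.6% with 1 CCAAT box. The longest run of bases shared by the Amd1 and Amd2 windows was 7. The Smox window lies inside the GENCODE span of Smox, which begins further upstream. Of the 10 genes, 8 had an entry in the RefSeq table, Sms and Paox with 2 windows each. The GC box was found in at least 1 window of 6 genes (Amd1, Odc1, Paox, Sat1, Smox and Sms), and in only 1 of the 2 windows of Sms. It occurs in 32.7% of all 32851 promoters of the same length, counted per window rather than per gene. The CCAAT box was found for Amd2, Oaz1 and Sms, against 33.8% of all promoters, and the E-box for Sms, against 6.02%. A match is a description of letters and not a binding site.

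Library totals ran from 16065394 to 51881258 estimated counts, and levels are given as CPM, counts scaled to a common library size, after TMM scaling, a correction for library composition. Nampt lay between 60.4 and 88.7 CPM in KO libraries and between 126 and 161 CPM in WT libraries, which is -0.95 ± 0.07 (SE) in log2 fold change (KO minus WT; edgeR, adjusted p = 9.68e-07). All 8 markers of skeletal muscle fibres were present, summing to 163107 to 195218 CPM in KO libraries and 168242 to 206247 CPM in WT libraries. Every library held Y-linked reads (Ddx3y, 508 to 1783 estimated counts) and at most 6 of Xist. KO libraries 1, 3, 5 and 8 carried the highest scores of RNA without a poly(A) tail, and values without them are given where they bear on a result. In bulk muscle, fewer cells of a type and less RNA per cell cannot be told apart.

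Per kilobase of exon, Amd1 was the most abundant of the 10 genes, at 276 CPM per kb in KO and 380.1 CPM per kb in WT. Smox followed at 93.4 CPM per kb in KO and 147 CPM per kb in WT, then Oaz1 at 82.8 CPM per kb in KO and 90.0 CPM per kb in WT, and in both genotypes the gap between Smox and Oaz1 was smaller than the SD of Smox. Next in the same order in both genotypes came Odc1, Sms, Amd2, Azin1, Sat1 and Srm, with 32.4, 20.3, 15.0, 5.81, 4.60 and 2.85 CPM per kb in KO. In WT their levels were 44.4, 25.8, 21.7, 6.02, 4.36 and 2.93 CPM per kb, and there Sms and Amd2 lay within 1 SD of each other. Paox was lowest at 0.570 CPM per kb in KO and 0.620 CPM per kb in WT. Amd2 levels per kilobase carry the read sharing described above.

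**Figure D1:**
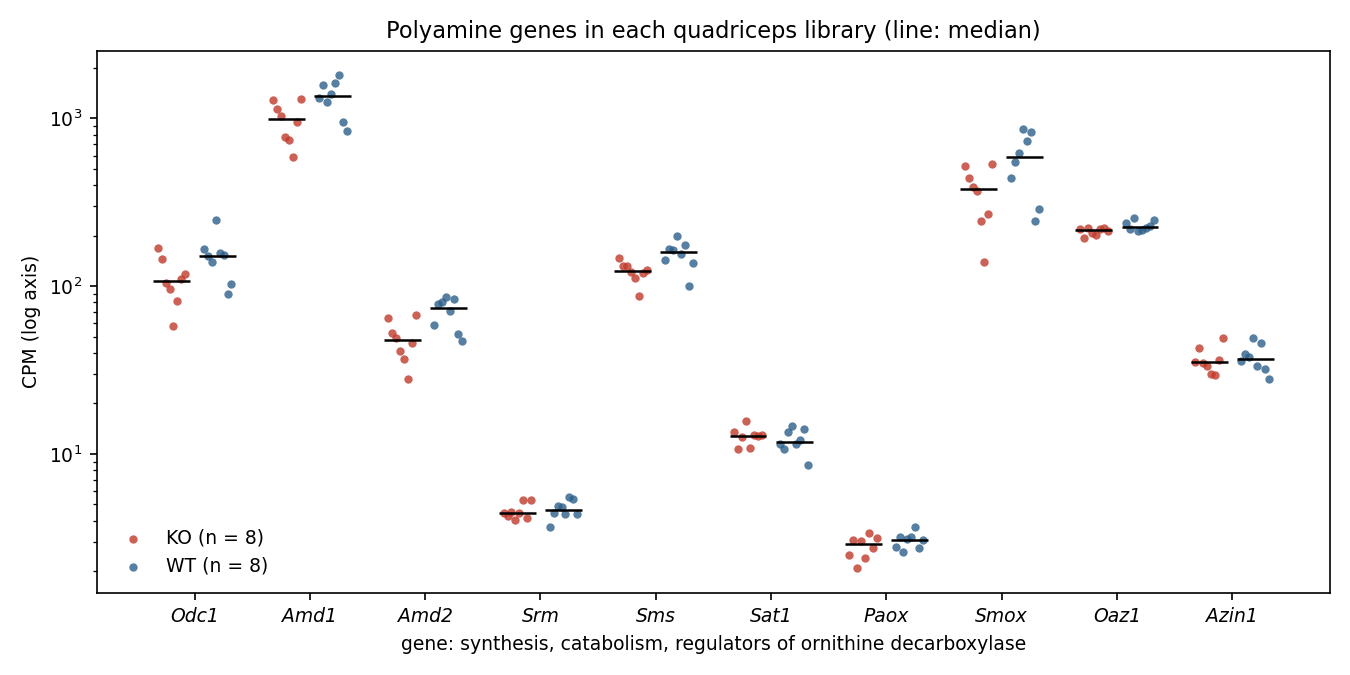
CPM (log axis) of the 10 polyamine genes in each quadriceps library, KO in red and WT in blue, with a black line at the median of 8 libraries. The medians of all genes except Sat1 were lower in KO, and the points of both genotypes overlapped for every gene. Smox had the longest column of points, from 139 to 534 CPM in KO and from 246 to 870.1 CPM in WT.

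Among the synthesis genes, Odc1 (ENSMUSG00000011179, chr12:17544794-17551505, plus strand), the first enzyme of the route, had its lowest, median and highest values at 57.9, 107 and 168 CPM in KO libraries and at 90.0, 152 and 248 CPM in WT libraries. Both ranges overlapped, with 7 of 8 KO libraries below the WT median. The log2 fold change was -0.46 ± 0.20 (SE). It was -0.32 without WT library 4, which was the highest of all 16.

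Amd1 had its lowest, median and highest values at 585, 996 and 1301 CPM in KO libraries and at 839, 1359.7 and 1806 CPM in WT libraries. All 8 KO libraries lay below the WT median, and 5 of 8 WT libraries lay above the highest KO library. The log2 fold change was -0.46 ± 0.17 (SE), or 72.6% of WT.

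Amd2 had its lowest, median and highest values at 27.8, 47.6 and 67.0 CPM in KO libraries and at 47.4, 74.5 and 85.9 CPM in WT libraries. As for Amd1, all KO libraries lay below the WT median and 5 WT libraries above the highest KO library. The log2 fold change was -0.53 ± 0.17 (SE). Amd2 made up 4.41% to 5.07% of the sum of both genes in KO libraries and 4.18% to 6.11% in WT libraries. Counted as 1 gene, Amd1 and Amd2 together had a log2 fold change of -0.47 ± 0.17 (SE), which is close to that of Amd1 because Amd2 is a small share of the sum, and which says nothing of Amd2 alone. The pseudogene copy Amd-ps3 averaged 23.7 ± 6.23 CPM in KO and 33.6 ± 7.56 CPM in WT (SD, n = 8 each), with a log2 fold change of -0.51 ± 0.16 (SE). Amd-ps4 averaged 1.60 ± 0.733 CPM in KO and 2.49 ± 0.784 CPM in WT, with -0.64 ± 0.26 (SE). Of the stretches of read length in Amd-ps3, 94.5% also occur in Amd1, so most reads from Amd-ps3 could be assigned to Amd1. Reads from the shared stretches of Amd1, which averaged 977 CPM in KO and 1346 CPM in WT, could also be assigned to the copies. The values of Amd-ps3 and Amd-ps4 may therefore include Amd1 reads, and how many was not tested. The share of Amd1 stretches that occur in Amd-ps3 was not counted, and Amd-ps3, with 1005 bases, is shorter than the Amd1 transcript of 3204. Amd-ps3 was not part of the sum.

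Of the aminopropyl transferases, Sms (ENSMUSG00000071708, chrX:157443855-157492287, minus strand) had its lowest, median and highest values at 87.3, 123 and 148 CPM in KO libraries and at 101, 159.5 and 198 CPM in WT libraries. The 8 KO libraries were all below the WT median, and the log2 fold change was -0.34 ± 0.11 (SE). Srm, which makes the spermidine that Sms uses, ran from 4.06 to 5.33 CPM in KO libraries and from 3.65 to 5.57 CPM in WT libraries. Its log2 fold change was -0.04 ± 0.09 (SE) and an interval (95%) of -0.23 to 0.14.

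Among the catabolic genes, Smox (ENSMUSG00000027333, chr2:131491496-131525922, plus strand) had its lowest, median and highest values at 139, 380.2 and 534 CPM in KO libraries and at 246, 588 and 870.1 CPM in WT libraries. All 8 KO libraries lay below the WT median, 2 of them below the lowest WT library, and 5 WT libraries lay above the highest KO library. The log2 fold change was -0.65 ± 0.28 (SE), or 63.5% of WT with an interval (95%) of 42.3% to 95.5%. Sat1 and Paox work through acetylated polyamines, and their KO and WT ranges overlapped widely. Sat1 ran from 10.7 to 15.8 CPM in KO libraries and from 8.60 to 14.7 CPM in WT libraries, with a log2 fold change of 0.08 ± 0.10 (SE). Paox ran from 2.08 to 3.38 CPM in KO libraries and from 2.59 to 3.66 CPM in WT libraries, with a log2 fold change of -0.11 ± 0.10 (SE).

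Of the regulators of ornithine decarboxylase, Oaz1 had its lowest, median and highest values at 193, 216 and 222 CPM in KO libraries and at 215, 225 and 254 CPM in WT libraries. The difference was small and its libraries tight, with a log2 fold change of -0.12 ± 0.04 (SE), or 92.0% of WT. Azin1 ran from 29.4 to 48.8 CPM in KO libraries and from 28.1 to 49.1 CPM in WT libraries, with a log2 fold change of -0.05 ± 0.12 (SE), which turned to 0.01 without WT library 4.

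In the fit across all 13792 tested genes (edgeR's quasi-likelihood test), 0 of the 10 genes passed at an adjusted p under 0.05, against 6 of all tested genes (0.0435%). DESeq2 and limma-voom also called 0 of the 10, and 1 of them had no adjusted p in DESeq2. At an unadjusted p under 0.05, 6 of the 10 stood lower in KO and 0 higher (Odc1, Amd1, Amd2, Sms, Smox and Oaz1), where 9.57% of all tested genes reached that level in either direction and 5.55% did so lower in KO. Nothing is read from that share, since the set was proposed from this contrast. The median log2 fold change was -0.23 over the 10 genes and 0.00 over all tested genes. Without KO libraries 1, 3, 5 and 8, the log2 fold changes were -0.91 for Smox, -0.64 for Amd1, -0.74 for Amd2, -0.43 for Sms and -0.48 for Odc1, and that of Paox turned to 0.01.

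Other genes of polyamine metabolism, in 4 lists by role, gave 23 tested genes of 29. In edgeR 0 of the 23 passed, with 2 at an unadjusted p under 0.05, and DESeq2, which gave 6 of them no adjusted p, and limma-voom also called 0. The median log2 fold change was -0.01. Of the genes of ornithine supply and the antizyme family, 4 of 8 were tested. Oat, the mitochondrial ornithine aminotransferase, averaged 146 ± 9.27 CPM in KO and 146 ± 11.4 CPM in WT (SD, n = 8 each). Oaz2, an antizyme like Oaz1, averaged 125 ± 7.20 CPM in KO and 124 ± 12.4 CPM in WT. Among genes of S-adenosylmethionine supply and methylthioadenosine salvage, of which 8 of 8 were tested, Mat2a, the synthetase of S-adenosylmethionine, differed by -0.18 ± 0.13 (SE). Adi1, of the salvage route, had -0.09 ± 0.04 (SE). For the hypusine route, with 4 of 4 tested, the target Eif5a differed by -0.09 ± 0.04 (SE), and Dohh, which completes hypusine, had -0.02 ± 0.04 (SE). Of the transport genes, with 7 of 9 tested, Atp13a2, a lysosomal polyamine exporter, had -0.01 ± 0.05 (SE), and Atp13a3, of the same family, had -0.24 ± 0.08 (SE). Eif5a and Atp13a3 were the 2 genes at an unadjusted p under 0.05, both lower in KO.

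**Figure D2:**
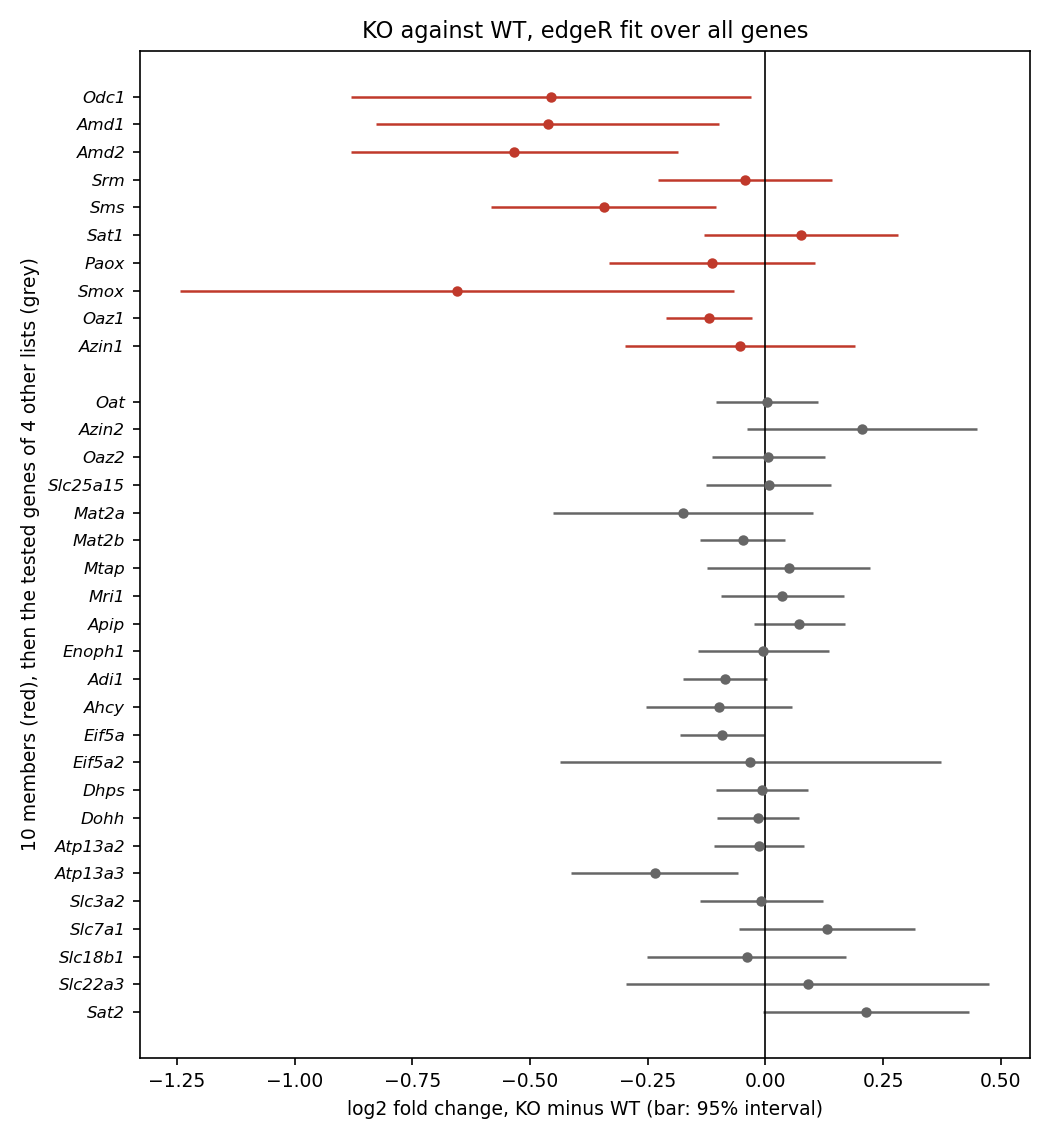
Log2 fold change, KO minus WT, of the 10 polyamine genes (red) and of the 23 tested genes of 4 other polyamine lists (grey), with 95% intervals from the edgeR fit. Smox had the most negative estimate, -0.65, and the widest interval among the 10, while the grey estimates lay between -0.24 and 0.21.

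Beyond the genotypes, several of these genes varied far more between libraries of 1 genotype than other genes of like level. The coefficient of variation (SD as a percent of the mean) of Smox was 38.0% in KO libraries and 40.9% in WT libraries. The median of tested genes whose mean was within 0.5 log2 units was 6.99% in KO and 7.31% in WT, and Smox stood at the 97.7th percentile of them in KO and the 98.1st in WT. Odc1 varied by 31.4% in both KO and WT, Amd1 by 26.7% in KO and 24.7% in WT, and Amd2 by 27.6% in KO and 21.8% in WT. Each of them was at or above the 95th percentile of genes of like level in both genotypes. Those genes numbered only 60 in KO and 47 in WT for Amd1, so its percentiles are coarse. They numbered 174 in KO and 107 in WT for Smox, and 1421 in KO and 1126 in WT for Amd2. Sms, with 14.4% in KO and 18.6% in WT, and Azin1, with 18.0% in KO and 18.5% in WT, stood between the 89.3rd and the 93.9th percentile. The KO value of Sms rests on KO library 6, without which it was 9.00%.

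The remaining genes stood lower among genes of like level. Oaz1 varied by 5.06% in KO and 6.31% in WT, at the 23.9th and the 41.1st percentile. Scaled by library totals alone, Oaz1 varied by 5.73% in KO and 8.19% in WT, at the 37.5th and the 61.0th percentile, and Paox in WT stood at the 9.22nd. Srm and Paox stood between the 18.2nd and the 49.2nd percentile, and Sat1 at the 77.6th in KO and the 87.7th in WT. These percentiles describe the 16 libraries and were not tested.

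**Figure D3:**
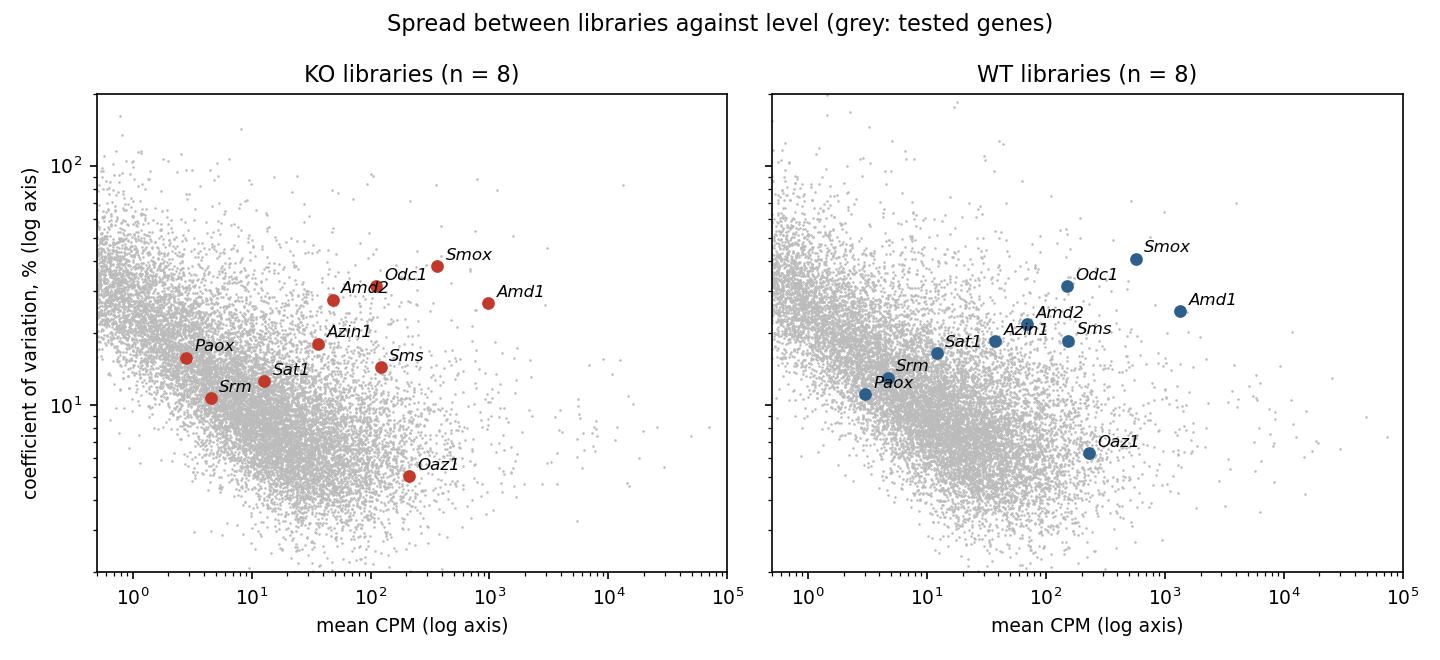
Coefficient of variation (percent, log axis) against mean CPM (log axis) over 8 KO libraries (left) and 8 WT libraries (right), with tested genes in grey and the 10 polyamine genes in colour. Smox, Odc1, Amd1 and Amd2 lie near the upper edge of the cloud in both panels, and Oaz1 lies inside it.

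The variable genes were high and low in the same libraries. KO library 6 was the lowest KO library for Smox (139 CPM), Amd1 (585 CPM), Amd2 (27.8 CPM), Sms (87.3 CPM) and Azin1 (29.4 CPM). In WT, libraries 7 and 8 were the lowest 2 for Smox, Amd1, Amd2, Sms, Odc1 and Azin1. WT library 4 was the highest WT library for Smox (870.1 CPM), Amd2 (85.9 CPM), Sms (198 CPM), Odc1 (248 CPM) and Azin1 (49.1 CPM).

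**Figure D4:**
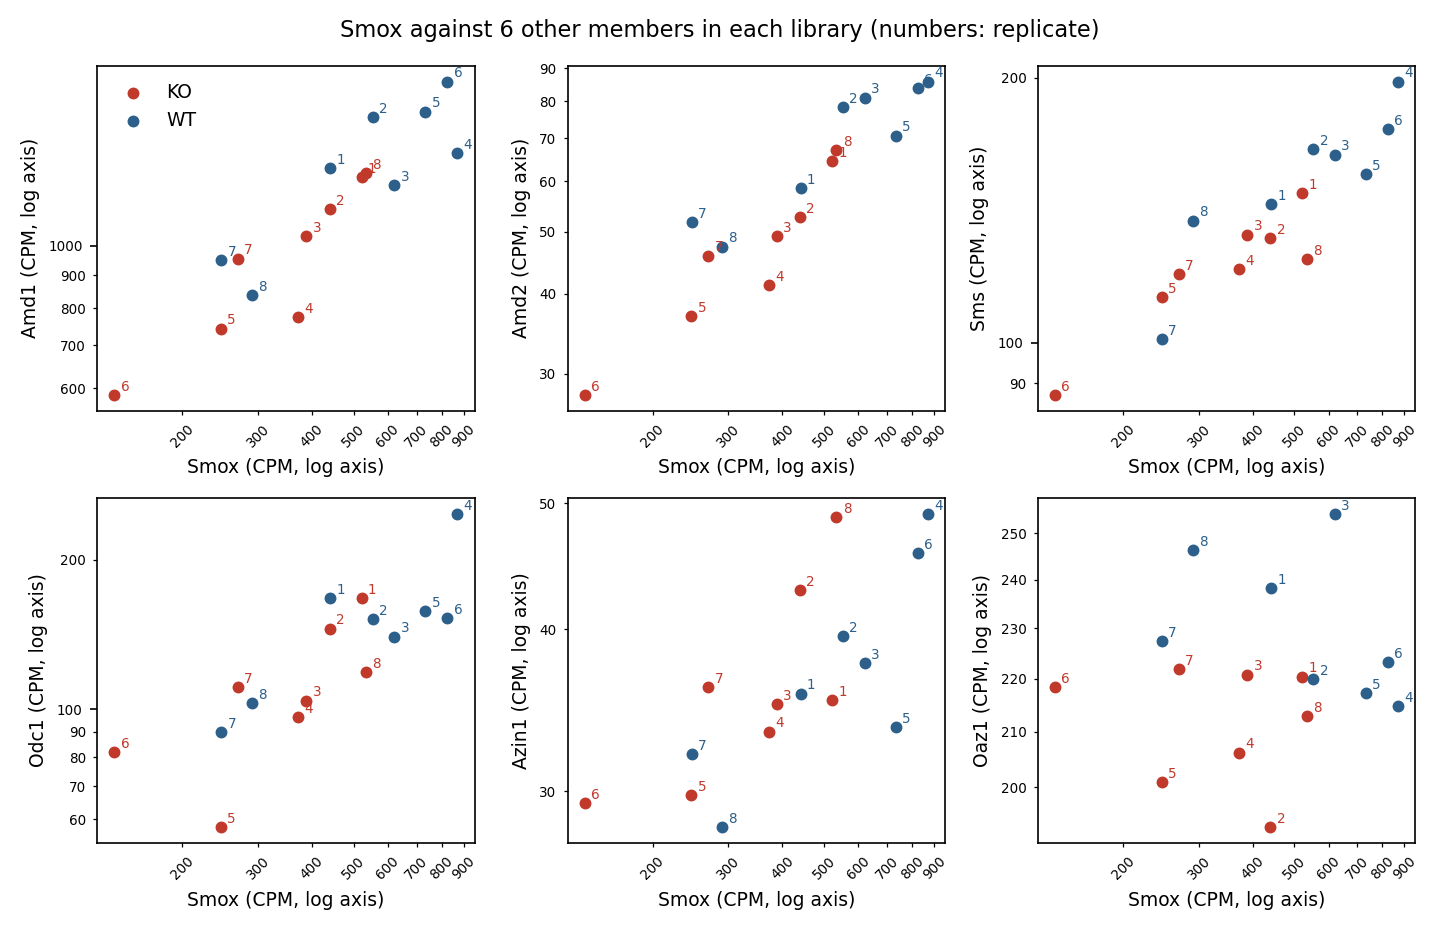
CPM of Amd1, Amd2, Sms, Odc1, Azin1 and Oaz1 (vertical, log axis) against CPM of Smox (horizontal, log axis) in each of 16 libraries, KO in red and WT in blue, with the replicate number beside each point. Points of both genotypes rise together in the panels of Amd1, Amd2 and Sms, with WT libraries 7 and 8 among the KO libraries, and show no such rise for Oaz1.

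Relations between the genes were measured as correlations of log2(CPM + 0.5) across the 8 libraries of each genotype, 45 pairs per genotype, with exact two-sided permutation p over 40320 pairings and Benjamini-Hochberg adjustment over all 90. In KO, 6 of 45 pairs passed an adjusted p under 0.05. Smox rose with Amd2 (r = 0.95, rho = 0.98, exact adjusted p = 0.0179), with Sms (r = 0.91, rho = 0.83, exact adjusted p = 0.0363) and with Amd1 (r = 0.91, rho = 0.98, exact adjusted p = 0.0363). The others were Amd1 with Amd2 (r = 0.99), Amd2 with Sms (r = 0.87) and Amd1 with Sms (r = 0.87). In WT, 4 of 45 pairs passed. They were Smox with Sms (r = 0.90, rho = 0.90, exact adjusted p = 0.0179), Smox with Amd2 (r = 0.92, rho = 0.90, exact adjusted p = 0.0363), Amd2 with Azin1 (r = 0.88) and Amd2 with Sms (r = 0.83). Called in both genotypes were 3 pairs, Smox with Amd2, Smox with Sms and Amd2 with Sms, which is 50% of those called in KO and 75% of those called in WT. By Spearman's rho 3 pairs passed in each genotype and 0 passed in both. In KO they were Amd1 with Amd2, Amd1 with Smox and Amd2 with Smox, and in WT Amd2 with Sms, Amd2 with Azin1 and Sms with Azin1. By rho, Smox with Sms had an exact adjusted p of 0.098 in KO and 0.0513 in WT, Smox with Amd2 had 0.0513 in WT, and Amd2 with Sms had 0.098 in KO.

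At an unadjusted exact p under 0.05, 11 of 45 pairs in KO and 13 of 45 in WT were correlated by Pearson's r. Between each of the 10 genes and all other tested genes the share was 6.82% in KO and 8.85% in WT. At the largest p of a called pair, the share of such relations was 0.735% in KO and 0.938% in WT. All of the pairs under 0.05 fell among Smox, Amd1, Amd2, Sms, Odc1 and Azin1, a group named after the values were seen. All 15 pairs of that group were positive in both genotypes, with r from 0.51 to 0.99 in KO and from 0.67 to 0.92 in WT. Of the 30 pairs with Srm, Sat1, Paox or Oaz1, 0 reached an unadjusted exact p under 0.05 by Pearson's r in either genotype. By rho, Amd1 with Paox in WT had 0.81 (exact unadjusted p = 0.0218, exact adjusted p = 0.098). The r of that pair was 0.58 over all 8 WT libraries and 0.96 without WT libraries 7 and 8. Odc1 rose less tightly with Smox, with r = 0.70 in KO (exact adjusted p = 0.199) and r = 0.84 in WT (exact adjusted p = 0.0616), and the difference between genotypes was not tested.

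How many pairs passed depended on single libraries and on the division of Amd reads. With Amd1 and Amd2 summed, 0 pairs passed in KO and 1 (Smox with Sms) in WT, with r for Smox and the sum of 0.91 in KO (exact adjusted p = 0.0536) and 0.87 in WT (exact adjusted p = 0.0908). With 1 KO library left out, 1 to 5 KO pairs passed, with 3 each without KO library 2, 4 or 7 and 1 each without KO library 5 or 6. With 1 WT library left out, 0 to 4 WT pairs passed, with 2 each without WT library 2, 3 or 8, 1 each without WT library 4 or 6 and 0 without WT library 7. With 1 library left out, Smox kept a positive correlation with Amd1, Amd2, Sms, Odc1 and Azin1 in both genotypes, and other pairs were only counted. The values for Smox ran from 0.89 to 0.98 with Amd2 and from 0.76 to 0.97 with Sms over the KO libraries left out, and from 0.90 to 0.95 with Amd2 and from 0.86 to 0.95 with Sms over the WT libraries left out. Without the 2 libraries farthest from the median of the gene named second, r in KO was 0.85 for Smox with Amd2, 0.71 for Smox with Sms and 0.72 for Smox with Amd1, and r in WT was 0.78 for Smox with Amd2 and 0.87 for Smox with Sms. In WT the relations of Amd1 with Smox, Amd2, Sms and Azin1 rest on libraries 7 and 8. Without them r was 0.44 with Smox, 0.26 with Amd2, 0.17 with Sms and 0.21 with Azin1, against 0.86, 0.82, 0.68 and 0.72 over all 8 WT libraries.

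**Figure D5:**
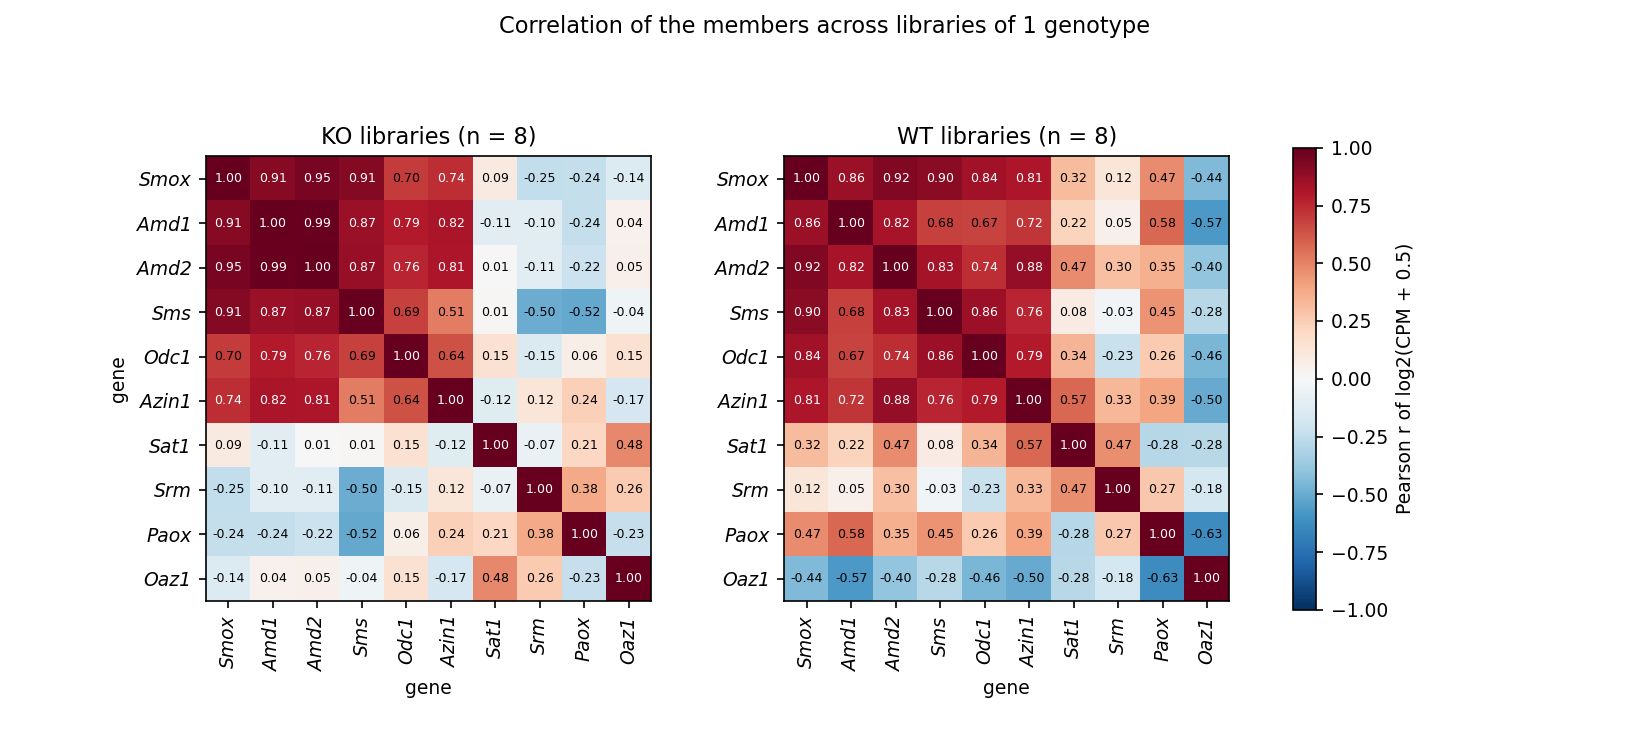
Pearson r of log2(CPM + 0.5) for each pair of the 10 polyamine genes across 8 KO libraries (left) and 8 WT libraries (right). The block of Smox, Amd1, Amd2, Sms, Odc1 and Azin1 is positive throughout in both panels, from 0.51 to 0.99 in KO and from 0.67 to 0.92 in WT.

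Between each tested gene and Smox, 4.77% of relations in KO and 6.29% in WT were positive at an unadjusted exact p under 0.05, and 4.49% in KO and 5.97% in WT were negative. Of the 10 genes, Amd1, Amd2, Sms and Azin1 were among the positive ones in both genotypes and Odc1 in WT, and 0 were among the negative ones.

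Smox did not pass a test of relation with any of 4 library measures, taken in each genotype as 8 relations. With a score of slow-fibre markers, the mean of their log2(CPM + 0.5), r was -0.68 in KO (exact p = 0.0504, adjusted p = 0.403) and -0.02 in WT. The rho with that score was -0.71 in KO and -0.31 in WT. Without the 2 libraries farthest from the median of Smox, r was -0.61 in KO and -0.43 in WT. All 7 slow-fibre markers were tested and 0 passed, against 0.0435% of all tested genes. All stood higher in KO, with log2 fold changes from 0.18 to 0.36. They summed to 477 to 859.6 CPM in KO libraries and 212 to 879.9 CPM in WT libraries. With their score as a covariate of the edgeR fit, log2 fold changes were -0.57 for Smox, -0.47 for Amd2, -0.29 for Sms and -0.43 for Odc1. Without it they were -0.65, -0.53, -0.34 and -0.46. That of Amd1 was -0.47 with it and -0.46 without. Genes of the set at an unadjusted p under 0.05 in edgeR numbered 4 with the covariate and 6 without. Smox had r = 0.20 in KO and 0.46 in WT with the RNA integrity number. With the library total its r was -0.17 in KO and -0.12 in WT. With the score of RNA without a poly(A) tail it was 0.50 in KO and -0.22 in WT. The 15 genes of that score, 11 of them tested and 0 called, summed to 233 to 715 CPM in KO libraries and 204 to 434 CPM in WT libraries. The part of fibre type and of non-polyadenylated RNA in the spread of Smox was not tested further.

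Likeness was then ranked over 11489 tested genes with a mean of at least 1 CPM, leaving out gene models, from deviations from the genotype mean over all 16 libraries. The ranks are a description without a test. The genes most like Smox were Irx3os (r = 0.94), Hipk2, a protein kinase (r = 0.94), Pcx, pyruvate carboxylase (r = 0.93), Elp5, a subunit of the Elongator complex (r = 0.93), and Amd2 (r = 0.93). Sms ranked 11 (r = 0.90), Amd1 23 (r = 0.88), Azin1 138 (r = 0.78), Odc1 154 (r = 0.77) and Oaz1 8629 (r = -0.31).

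The genes most like Amd1 were Mettl21c, a muscle methyltransferase (r = 0.93), Irx3os (r = 0.92), Ube2v1 (r = 0.91), Amd2 (r = 0.91) and Cdk19, a cyclin-dependent kinase (r = 0.91), and Smox ranked 8. Those most like Odc1 were Otog (r = 0.93), Stt3b, a subunit of oligosaccharyltransferase (r = 0.89), Nek6 and Ube2j1 (r = 0.88 each) and Schip1 (r = 0.87). Smox ranked 77 and Sms 75 for Odc1, so no other polyamine gene of the 10 was among its 5 closest.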

How the data were processed

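Estimated counts per gene were deposited by the authors. The submitters' processing notes name GRCm38 and the tools Salmon, STAR and bcl2fastq 4.0.3. Not given in the sources used here are the annotation release, the strand setting and the other versions. Of all values 5.96% were not whole (tolerance 0.01), and all were rounded before the count models. Columns that matched no library numbered 0. The 10 genes, the 4 other lists and the markers were chosen with earlier results of these data known. KO and WT were compared in R 4.3.3 with edgeR 4.0.16 (quasi-likelihood test, TMM scaling, default low-count filter, no covariate, Benjamini-Hochberg adjustment over 13792 genes). DESeq2 1.42.0, limma 3.58.1, other scalings, filters and covariates, and leaving out each library were alternatives. CPM were computed here from the deposited counts, and correlations used Python 3.11.15 with scipy 1.17.1 on log2(CPM + 0.5). Genes outside the 10 were named by rule. They were Nampt, the pseudogene copies, given where they passed the low-count filter, and the 2 most abundant genes of each other list where none passed. The rule also named the 5 genes most like Smox, Amd1 and Odc1. Ahcy, Ddx3y and Xist were named outside it, Ahcy after its values were seen. Coordinates and transcripts are from GENCODE vM21, in which 98.8% of gene identifiers were found, and promoters from RefSeq. Libraries of a genotype were checked for duplicates by chi-square over genes, which per degree of freedom was at least 8.66 in KO and at least 10.1 in WT, and all 16 were kept. The gene test was tested on simulated data of the same size, in which 46% of genes changed 1.25-fold and 82% of those changed 1.5-fold were recovered, and 6.90% of calls were false. The changed genes were drawn at random without regard to spread. Recovery was not measured for genes that vary as much as Smox, Odc1, Amd1 and Amd2.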

Additional observations from a re-analysis of the deposited data

How the results depend on the processing

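Under every alternative run, 0 of the 10 polyamine genes and 0 of the 23 other polyamine genes passed, and 4 to 6 of the 10 had an unadjusted p under 0.05. The log2 fold changes of Smox (-0.91 to -0.53), Amd1 (-0.64 to -0.38), Amd2 (-0.74 to -0.45), Sms (-0.43 to -0.28) and Odc1 (-0.56 to -0.32) kept their sign. Of all tested genes, 6 were called in the fit described, 2 with RLE scaling, 2 with library totals only, 3 without the low-count filter, 96 with DESeq2, 2 with a covariate of RNA without a poly(A) tail, 2 with one of slow-fibre markers, 2 without KO libraries 1, 3, 5 and 8, and 2 to 8 with 1 library left out. The other polyamine genes at an unadjusted p under 0.05 numbered 2 in the fit described, 1 without the filter, 1 with RIN as a covariate, 1 with the covariate of RNA without a poly(A) tail, 0 without KO libraries 1, 3, 5 and 8, and 1 to 3 with 1 library left out. Called pairs of the 10 genes numbered 3 in KO and 3 in WT by Spearman rho, with 0 of them in both, 0 in KO and 1 in WT with Amd1 and Amd2 summed, 0 in KO and 0 in WT without the 2 farthest libraries, where 6 libraries leave few pairings, and 1 to 5 in KO and 0 to 4 in WT with 1 library left out. The causes were not tested. Same-numbered KO and WT libraries had deviations that correlated from -0.086 to 0.327, over 0.1 for 4 of 8 numbers and not for all, so the numbers were not taken to pair the samples. With the replicate number as a block, 2 genes were called, 5 of the 10 and 1 of the other polyamine genes had an unadjusted p under 0.05, and Smox had a log2 fold change of -0.63. Of the 8 KO libraries, 2 correlated best with the WT library of their own number. Depth is thin for Paox and Srm, with as few as 41 and 70 estimated counts in a library. Scaling by library totals raised the coefficient of variation of Oaz1 in WT to 8.19%.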

Other observations

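Smox was also set against the 23 other tested polyamine genes in each genotype, 46 relations chosen after the pairs above had been seen, and 0 passed the adjustment over all 46. Named after its values were seen was Ahcy, which hydrolyses S-adenosylhomocysteine, with r = 0.87 in KO (rho = 0.86) and r = 0.85 in WT (rho = 0.88), each at an exact adjusted p of 0.0784. Mat2a, which makes S-adenosylmethionine, had r = 0.84 in both KO (rho = 0.90, exact adjusted p = 0.0784) and WT (rho = 0.86, exact adjusted p = 0.0933). Oaz2, an antizyme, went the other way, with r = -0.81 in KO (rho = -0.69, exact adjusted p = 0.164) and r = -0.86 in WT (rho = -0.95, exact adjusted p = 0.0784). Without the 2 libraries farthest from the median, Oaz2 had r = -0.15 in KO and -0.75 in WT, so in KO that relation rests on those libraries, whereas Ahcy had 0.74 in KO and 0.65 in WT and Mat2a 0.71 in KO and 0.73 in WT.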
